A study of Mus musculus with 6 samples.

Results

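The early growth response (EGR) factors and the NGFI-A binding (NAB) corepressors were followed as 6 genes, Egr1, Egr2, Egr3, Egr4, Nab1 and Nab2, taken by their symbols out of 21853 genes in the deposited table. Each symbol stood on 1 row, so all 6 members were found. RNA came from mouse embryonic fibroblasts, connective tissue cells grown from embryos, of strain C57BL/6J with a labelled age of 12 days. There were 3 libraries of xCT knockout cells given red clover extract (RCE) and 3 of xCT knockout cells given water (control), so the loss of xCT, the cystine carrier encoded by Slc7a11, was shared by both groups. The labels give no dose, length of exposure or medium. Nor do they say that replicates came from separate cultures, so each p-value weighs a difference against a spread that may be only technical. The study's title places the work in ferroptosis, cell death through iron-dependent oxidation of membrane lipids.

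EGR proteins are zinc finger transcription factors that bind GC-rich DNA with the consensus GCGTGGGCG. Their genes are immediate-early genes: growth factors, serum and stress switch them on within minutes, mainly through the ERK kinases, which act on ternary complex factors bound with serum response factor (SRF) at CArG boxes, and through CREB. The NAB proteins bind Egr1, Egr2 and Egr3 and turn them into repressors, partly by recruiting the nucleosome remodelling and deacetylase (NuRD) complex, and Nab2 is itself induced by EGR factors, which closes a feedback loop.

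The stretches of 250 bases before the annotated transcription start of 4 members are shown because they carry letters that the pathway is known to use. Windows of Egr1 and Egr3 were not analysed here, so nothing is said of their motifs. They are RefSeq sequences on GRCm38.p6, the assembly called mm10, written 5′ to 3′ on the gene's own strand. Capitals mark matches, on either strand, to a CArG box, to TGACG (the core read by CREB) or to GCGTGGGC (the EGR consensus without its last letter). The Egr2 window is chr10:67537619-67537868 on the plus strand, Egr4 is chr6:85513590-85513839 on the minus strand, Nab2 is chr10:127666704-127666953 on the minus strand and Nab1 is chr1:52500449-52500698 on the minus strand.
Egr2: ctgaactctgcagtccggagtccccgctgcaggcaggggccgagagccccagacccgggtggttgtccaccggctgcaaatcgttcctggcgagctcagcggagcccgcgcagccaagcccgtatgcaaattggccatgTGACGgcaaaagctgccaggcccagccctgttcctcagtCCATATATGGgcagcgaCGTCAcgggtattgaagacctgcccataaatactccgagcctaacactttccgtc
Egr4: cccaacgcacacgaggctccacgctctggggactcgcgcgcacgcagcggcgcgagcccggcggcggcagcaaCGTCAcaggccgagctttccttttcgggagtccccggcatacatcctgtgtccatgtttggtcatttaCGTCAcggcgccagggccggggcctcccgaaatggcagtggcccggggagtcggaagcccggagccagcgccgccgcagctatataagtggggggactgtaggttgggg
Nab2: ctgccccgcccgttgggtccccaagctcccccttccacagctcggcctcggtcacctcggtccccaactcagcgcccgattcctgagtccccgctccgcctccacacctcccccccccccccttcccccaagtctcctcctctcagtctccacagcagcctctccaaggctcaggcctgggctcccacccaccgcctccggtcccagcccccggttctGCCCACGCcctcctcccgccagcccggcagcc
Nab1: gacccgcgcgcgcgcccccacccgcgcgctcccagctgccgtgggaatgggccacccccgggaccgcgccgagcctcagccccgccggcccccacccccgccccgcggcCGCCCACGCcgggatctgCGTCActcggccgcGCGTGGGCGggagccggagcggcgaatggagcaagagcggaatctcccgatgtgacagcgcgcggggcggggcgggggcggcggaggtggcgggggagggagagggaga

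In this Egr2 window a CArG box, CCATATATGG, lay 72 to 63 bases before the start, with TGACG matches at 111 to 107 and 55 to 51 bases before it, the second of these on the opposite strand. Another annotated Egr2 start, at position 67537566, also had a CArG box, CCTTTTTTGG, 72 to 63 bases before it. The window of a further annotated Egr2 start, at position 67535499, held none of the motifs searched for. The Egr4 window held TGACG, read on the strand opposite to the gene, at 177 to 173 and 109 to 105 bases before the start. The Nab1 window held the full EGR consensus GCGTGGGCG at 141 to 133 and at 109 to 101 bases before the start, and 1 TGACG match. The Nab2 window held no full consensus, and GCGTGGGC once, 32 to 25 bases before the start. Over all 32851 promoter windows of the same length, 1.47% held a CArG box, 17.8% held TGACG, 1.37% held GCGTGGGC and 0.536% held GCGTGGGCG, which always contains the shorter form. These windows are richer in G and C than most (61.6% in Egr2, 68.0% in Egr4, 72.8% in Nab2 and 80.8% in Nab1, against a median of 52.4%), the motifs were chosen with these sequences in view, and a match is a description of the letters alone.

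Levels are in FPKM, fragments divided by transcript length and by library depth, so they can be compared between genes per length. Steps between low values gave depths of 45700000 to 59000000 fragments in RCE libraries and 49400000 to 54200000 in control libraries. Slc7a11, the knocked-out gene, was at 0.009, 0.017 and 0.007 FPKM in RCE libraries and 0.013, 0.027 and 0.037 FPKM in control libraries, where 1 fragment on its longest transcript is worth 0.00184 to 0.00237 FPKM; the groups overlapped. All 11 fibroblast markers were above 1 FPKM on average, with summed levels of 5836 to 6132 FPKM in RCE libraries and 6531 to 6806 FPKM in control libraries. Of the markers of other cell types, Schwann cells, in which Egr2 drives myelination, had 0 of 5 markers above 1 FPKM, with sums of 0.705 to 0.922 FPKM in RCE libraries and 0.831 to 1.26 FPKM in control libraries. Sums for macrophage markers were 12.8 to 14.7 FPKM in RCE libraries and 16.6 to 17.7 FPKM in control libraries (3 of 6 markers above 1 FPKM), for epithelial markers 4.50 to 5.77 against 6.75 to 7.32 FPKM (2 of 5), for endothelial markers 1.33 to 1.61 against 1.42 to 1.68 FPKM (1 of 5), and for neuron markers 11.9 to 12.8 against 10.2 to 11.1 FPKM (1 of 5). Skeletal muscle markers summed to 126 to 146 FPKM in RCE libraries and 116 to 135 FPKM in control libraries through Des and Acta1, while Myod1 was at 0 in every library. Fibroblast, macrophage and epithelial sums were lower with the extract without overlap, and neuron sums were higher without overlap. In the test described below, Pdgfrb and Dcn of the fibroblast list, Lyz2 of the macrophage list and Krt19 of the epithelial list were called lower, and Tubb3 of the neuron list and Des of the muscle list higher. That test called 6.77% of all genes tested lower and 17.6% higher. Lyz2 passed in 17 of 17 alternatives, but Pdgfrb in 11 of 17, Dcn in 9 of 17, Krt19 in 11 of 16, Tubb3 in 10 of 17 and Des in 12 of 17. Of the 11 fibroblast markers, 8 were lower with replicate number as a block, and 0 without RCE replicate 2, RCE replicate 3, control replicate 2 or control replicate 3. With the block, 2 epithelial markers were lower, and 1 macrophage marker was higher and 1 lower. The fit with the block called 15.9% of all genes tested lower and 46.6% higher. The part of these cell types in the results was not tested.

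With the extract, Egr1, Egr2, Egr3 and Nab2 transcripts fell, while Nab1, the other corepressor, was lower by 7.53% on average and did not pass the test. The falls in mean FPKM were 68.8% for Egr1, 83.3% for Egr2, 84.1% for Egr3 and 57.4% for Nab2. Egr4, near the limit of detection, was 81.9% lower and too low for the fit. The 3 RCE values lay below the 3 control values for all 6 members. Among the 10870 genes tested, which leave out Egr4, 10.9% had this arrangement, while 31.2% had all RCE values above all control values. In bulk RNA, fewer cells making a transcript and less of it per cell cannot be told apart. Differences were tested with limma on log2(FPKM + 1), adjusted by Benjamini-Hochberg over all genes that averaged 1 FPKM or more, with a threshold of 0.05. In that fit 6.77% of genes were called lower and 17.6% higher, 0.552% were called with a change of -1 or lower, as Egr1, Egr2, Egr3 and Nab2 were, and 0.0644% with a change of 1 or higher. The median change of all genes tested was +0.08. Median-of-ratios scaling takes that shift out, and 10.0% were then called lower and 8.5% higher. All changes below are RCE minus control in log2(FPKM + 1) without that scaling, unless stated otherwise. The log2(FPKM + 1) scale understates the change of low transcripts.

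**Figure D1:**
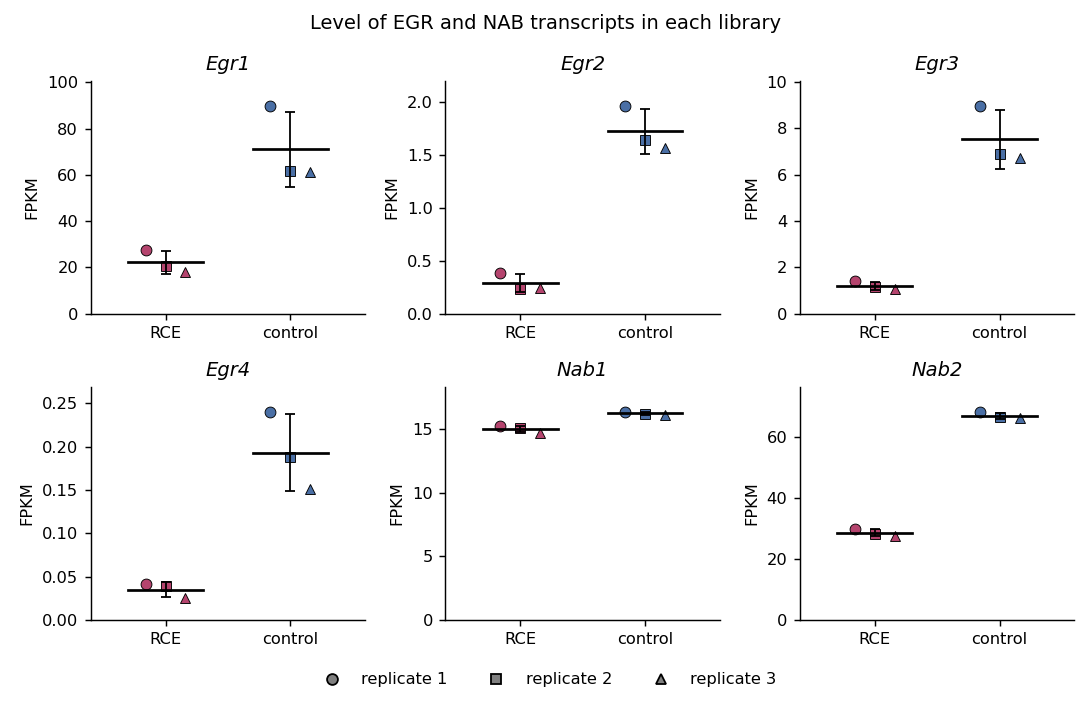
FPKM of each member in the 6 libraries, with a linear axis from 0 for each gene, points by replicate number, and the mean (long line) with its SD (bar) over 3 libraries. RCE points lie below control points in every panel, by the least for Nab1 (14.7 to 15.3 against 16.2 to 16.4 FPKM).

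Egr1 (ENSMUSG00000038418, chromosome 18, 34859823 to 34864984 on mm10, plus strand), the factor of the family most widely induced by growth factors and wounding, was at 27.7, 20.6 and 18.1 FPKM in RCE replicates 1, 2 and 3, and at 89.8, 61.9 and 61.4 FPKM in control replicates 1, 2 and 3. Replicate 1 was the highest in each group, and the lowest control library was still 2.22 times the highest RCE library. Means were 22.1 ± 4.99 FPKM with the extract and 71.0 ± 16.3 FPKM in control (SD, n = 3 each). The change was -1.64 (SE 0.20, limma adjusted p = 0.00338), which was the 21st most negative of 10870. Egr1 had the widest spread of the fitted members on the log scale, and its 95% interval ran from -2.12 to -1.15. Within same-numbered libraries the changes lay close together, at -1.66, -1.54 and -1.71 for replicates 1, 2 and 3.

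Egr3 (ENSMUSG00000033730, chromosome 14, 70077203 to 70082614, plus strand), which is needed for muscle spindles and acts in lymphocytes, was at 1.40, 1.15 and 1.05 FPKM in RCE replicates 1, 2 and 3, and at 8.97, 6.88 and 6.72 FPKM in control replicates 1, 2 and 3. Every control library exceeded every RCE library by at least 4.81 times. Means were 1.20 ± 0.180 FPKM with the extract and 7.52 ± 1.26 FPKM in control (SD, n = 3 each). Its change of -1.95 (SE 0.11, limma adjusted p = 2.22e-04) was the 9th most negative of all genes tested and the most negative among the members.

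Egr2 (ENSMUSG00000037868, chromosome 10, 67535475 to 67542188, plus strand), also called Krox20, is the factor of hindbrain patterning and of myelination by Schwann cells. It was at 0.386, 0.234 and 0.241 FPKM in RCE replicates 1, 2 and 3, and at 1.96, 1.64 and 1.56 FPKM in control replicates 1, 2 and 3. The groups stood apart by 4.04 times between their nearest libraries. The change was -1.08 (SE 0.07, limma adjusted p = 4.29e-04). Its mean over the 6 libraries, 1.00 FPKM, only just met the limit of 1 FPKM, and it met it through the control libraries alone, so a gene with this pattern of levels could enter the fit only by differing. The pseudocount weighs on it as well: with 0.1 in place of 1 its change was -2.25.

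Egr4 (ENSMUSG00000071341, chromosome 6, 85511121 to 85513589, minus strand), the member known for its part in male germ cells, was at 0.041, 0.039 and 0.025 FPKM in RCE replicates 1, 2 and 3, and at 0.240, 0.188 and 0.151 FPKM in control replicates 1, 2 and 3. It has a single annotated transcript, so its fragments could be recovered: 4, 5 and 3 in RCE replicates 1, 2 and 3 and 28, 20 and 16 in control replicates 1, 2 and 3. Together these were 12 fragments with the extract (95% exact Poisson interval 6.20 to 21.0) and 64 in control (49.3 to 81.7), a ratio of 0.179 per unit of depth (95% exact interval 0.0877 to 0.334). These intervals cover counting error only, since amplified copies are not independent molecules. Over libraries the difference in log2(FPKM + 1) was -0.20 (2-sided exact permutation test, p = 0.1, the smallest that 3 against 3 can give). With no limit on low values Egr4 could be fitted and was called lower (limma adjusted p = 0.0204, where 3.71% of 21853 genes were called lower).

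Nab2 (ENSMUSG00000025402, chromosome 10, 127660918 to 127668568, minus strand), the corepressor that EGR factors induce, was at 29.8, 28.1 and 27.7 FPKM in RCE replicates 1, 2 and 3, and at 68.2, 66.5 and 66.2 FPKM in control replicates 1, 2 and 3. The libraries of a group were close to each other, with the highest 1.08 times the lowest with the extract and 1.03 times in control, while the nearest libraries of the 2 groups stood 2.22 times apart. Means were 28.5 ± 1.15 FPKM with the extract and 67.0 ± 1.07 FPKM in control (SD, n = 3 each). The change was -1.20 (SE 0.05, 95% interval -1.32 to -1.09, limma adjusted p = 5.32e-05). Nab2 overlaps 3 genes on the other strand, Stat6 by 40 exonic bases, Nemp1 by 151 and the antisense RNA gene Gm16229 by 1050, and nothing in the sources used here says whether counting used strand, so reads of these genes could have been counted for Nab2. Stat6, a transcription factor of interleukin signalling, was at 36.4 ± 0.278 FPKM with the extract and 33.6 ± 1.23 FPKM in control (change 0.11, limma adjusted p = 0.120), and Nemp1, a nuclear envelope protein, was below 1 FPKM in every library. The level of Gm16229, which has the largest of these overlaps, was not examined, so its part in the Nab2 values was not tested.

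Nab1 (ENSMUSG00000002881, chromosome 1, 52457294 to 52500679, minus strand), the corepressor present in many cells without induction, was at 15.3, 15.1 and 14.7 FPKM in RCE replicates 1, 2 and 3, and at 16.4, 16.2 and 16.2 FPKM in control replicates 1, 2 and 3. The groups did not overlap, but the nearest libraries differed by only 1.06 times. Means were 15.0 ± 0.257 FPKM with the extract and 16.2 ± 0.102 FPKM in control (SD, n = 3 each). The change was -0.11 (SE 0.04, 95% interval -0.20 to -0.02), which did not pass the threshold (limma adjusted p = 0.0893). It passed with replicate number as a block (-0.11, adjusted p = 0.00857, in a fit that called 15.9% of genes lower) and with median-of-ratios scaling (-0.19, adjusted p = 0.0249). In every alternative run, Nab1 changed by less than any other fitted member, at -0.19 to -0.09.

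**Figure D2:**
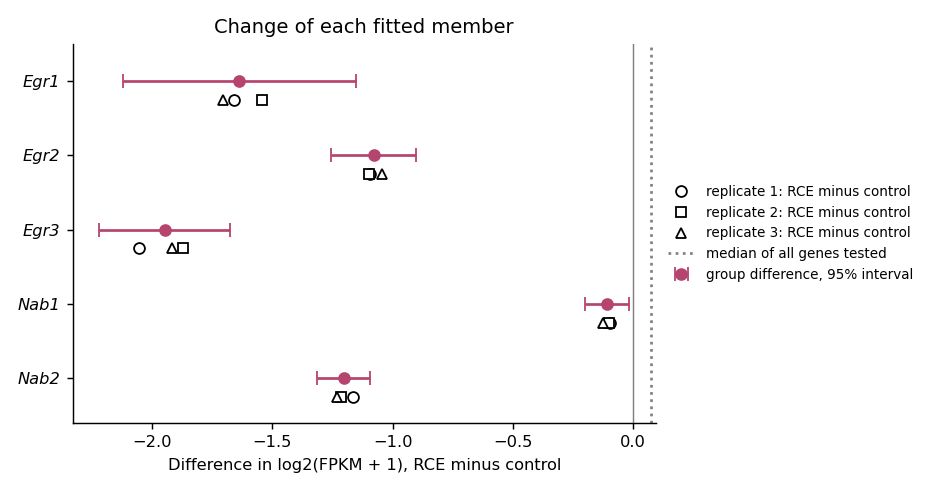
Change of the 5 fitted members in log2(FPKM + 1), RCE minus control. Filled points show the group difference with its 95% interval from limma, open points show the difference within each same-numbered pair of libraries, and the dotted line shows the median of all genes tested (+0.08). The intervals of Egr1, Egr2, Egr3 and Nab2 lie below -0.90, and that of Nab1 lies between -0.20 and -0.02.

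In order of mean level, the members stood as Nab2, Egr1, Nab1, Egr3, Egr2 and Egr4 with the extract, and as Egr1, Nab2, Nab1, Egr3, Egr2 and Egr4 in control. The ranges of Egr1 and Nab2 overlapped within each group, so their order was not settled in either, and all other neighbours were separated in every library. In each group replicate 1 had the highest level of every member, by a wide margin for Egr1 (27.7 against 20.6 and 18.1 FPKM with the extract, and 89.8 against 61.9 and 61.4 FPKM in control) and by a narrow one for the NAB genes. What sets replicate 1 apart was not tested. Without replicate 1 of both groups, Egr1 changed by -1.63 and Nab2 by -1.22.

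Summed over the families, EGR transcripts were lower by a larger factor than NAB transcripts, given here as a description with no test. The summed level of the 4 EGR genes was 29.6, 22.0 and 19.4 FPKM in RCE replicates 1, 2 and 3, and 101, 70.6 and 69.9 FPKM in control replicates 1, 2 and 3. For the 2 NAB genes the sum was 45.1, 43.2 and 42.4 FPKM in RCE replicates 1, 2 and 3, and 84.5, 82.8 and 82.4 FPKM in control replicates 1, 2 and 3. The ratio of the sums was 0.656, 0.509 and 0.458 with the extract and 1.19, 0.853 and 0.848 in control, so every RCE library lay below every control library. Egr1 made up 93.2 to 93.8% of the EGR sum with the extract and 87.7 to 88.9% in control. Nab2 made up 65.1 to 66.2% of the NAB sum with the extract and 80.4 to 80.7% in control. These sums are of RNA levels per length, and say nothing of protein.

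**Figure D3:**
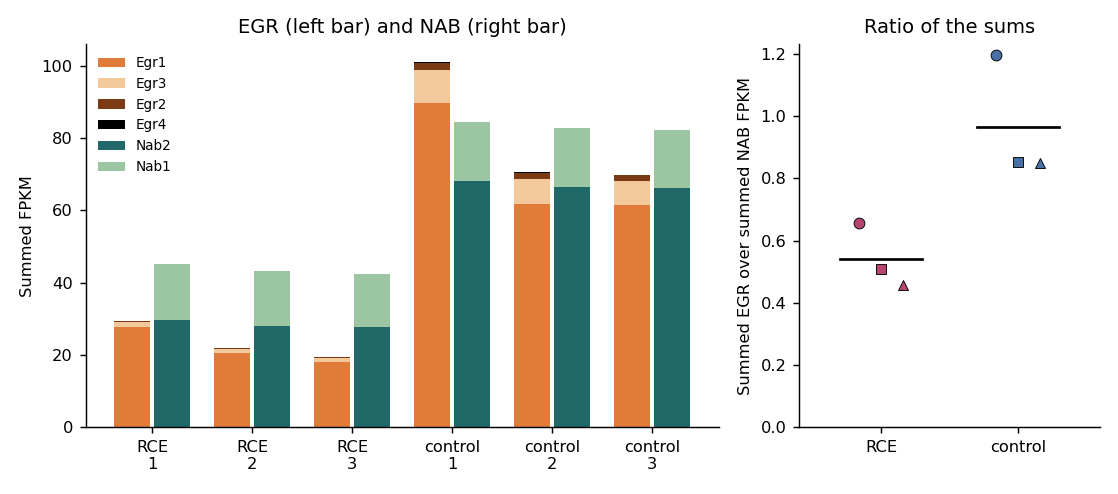
Left, summed FPKM of the EGR genes (left bar of each pair, split by gene) and the NAB genes (right bar) in each library. Right, the ratio of the sums, with points by replicate number (circle 1, square 2, triangle 3) and the mean as a line. The NAB bar is the taller one in all RCE libraries and in control replicates 2 and 3, and the EGR bar in control replicate 1.

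Ratios between members within a library show whether they changed by different amounts. Across 9 ratios on the log2(FPKM + 1) scale, each compared by a 2-sided exact permutation test, no p could go below 0.1, and the lowest adjusted p was 0.129. Nab2 over Nab1 was 0.88 ± 0.04 with the extract and 1.98 ± 0.01 in control (log2, SD, n = 3 each), a difference of -1.10 with no overlap between groups (exact permutation p = 0.1). On the linear scale Nab2 stood at 1.86 to 1.96 times Nab1 with the extract and at 4.10 to 4.17 times in control. Egr3 over Nab2 differed by -0.74, with no overlap (exact permutation p = 0.1), so Egr3 was lower by more than its corepressor in each of the 3 same-numbered pairs. Egr1 over Nab1 differed by -1.53 and Egr3 over Nab1 by -1.84, and Egr2 over Nab1 by -0.97, none with overlap (exact permutation p = 0.1 for each).

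Egr1 and Nab2 were not separated in this way. Egr1 over Nab2 in plain FPKM was 0.930, 0.732 and 0.655 in RCE replicates 1, 2 and 3, and 1.32, 0.930 and 0.928 in control replicates 1, 2 and 3. RCE replicate 1 thus reached the level of control replicates 2 and 3, and the log2 difference of -0.43 had an exact permutation p of 0.3. Within same-numbered libraries the ratio was lower with the extract in 3 of 3. For Egr4 in all libraries, and for Egr2 in RCE libraries, the pseudocount of 1 outweighs the level. The ratios over Nab2, 0.13 for Egr2 and 1.00 for Egr4, therefore reflect the scale more than the transcripts. So does that of Egr4 over Nab1, -0.10. Egr2 over Nab1, at -0.97, ran from -2.14 to -0.81 over the alternatives. With a pseudocount of 0.1, Egr2 over Nab2 differed by -1.02.

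Genes reported as direct EGR targets, in fibroblasts or other cells, fell more often than not among those called. Of 34 listed, 27 were fitted, and 12 were lower and 3 higher, with a median change of -0.15 against +0.08 over all genes tested, of which 6.77% were lower and 17.6% higher. The median of the 11 fibroblast markers was also -0.15. The list draws on reports from several cell types and was made with earlier results known. Ptgs2, the inducible cyclooxygenase, was at 84.2 ± 1.88 FPKM with the extract and 231 ± 12.3 FPKM in control (SD, n = 3 each; change -1.44, limma adjusted p = 5.22e-05). Arc, the neuronal activity gene driven by Egr1 and Egr3, was at 0.479, 0.255 and 0.326 FPKM in RCE replicates 1, 2 and 3, and at 2.18, 1.84 and 1.59 FPKM in control replicates 1, 2 and 3 (change -1.08, adjusted p = 0.00101), and it too met the limit on low values through the control libraries. Atf3, a stress-induced factor that binds with AP-1 proteins, also on the list of immediate-early factors, changed by -1.08, the angiogenic factor Vegfa by -0.86 and the hyaluronan receptor Cd44 by -0.51. The lower calls of these 5 genes held in all alternatives in which they were fitted.

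The 3 targets called higher included Trp53, which encodes p53 (change 0.25, limma adjusted p = 0.0399), named here after its value was seen. None of the 3 higher calls was left with median-of-ratios scaling (0 higher and 13 lower), with no limit on low values (0 and 10), or without RCE replicate 2 (0 and 9), RCE replicate 3 (0 and 11), control replicate 2 (0 and 9) or control replicate 3 (0 and 9). With quantile normalization or without control replicate 1, 1 was higher and 12 lower. The replicate block gave 3 higher and 17 lower, array weights 4 and 17, and the block with median-of-ratios scaling 3 and 20. These fits called more of all 10870 genes as well: 5060 higher and 1730 lower, 5047 and 1731, and 2875 and 2996. The most familiar EGR1 target among growth factors, Pdgfa, was not among the calls, at 20.4 ± 0.470 FPKM with the extract and 19.3 ± 0.944 FPKM in control (change 0.08, 95% interval -0.04 to 0.20, adjusted p = 0.310), and it was chosen for mention after its value was seen. Of the 6 myelin genes that Egr2 drives in Schwann cells, 2 were fitted, and Prx was called higher (0.19, limma adjusted p = 0.0257), a call that held in 10 of 16 alternatives and was lost with median-of-ratios scaling.

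Most other transcription factors of the immediate-early class were called lower too. Of 15 listed and fitted, 12 were lower and 0 higher (limma, and 0 higher also at an unadjusted p under 0.05), and the median was -0.83. Over all genes tested, 6.77% were called lower and 17.6% higher. Nr4a1, an orphan nuclear receptor, was at 7.67 ± 1.07 FPKM with the extract and 59.1 ± 6.82 FPKM in control (SD, n = 3 each; change -2.79, limma adjusted p = 6.20e-05). The AP-1 genes Junb, Fosb and Fos changed by -2.16, -1.68 and -1.50, and Nr4a3 by -1.48. Fos and Nr4a3 averaged 0.937 and 0.588 FPKM with the extract and 4.47 and 3.44 FPKM in control, so they met the limit on low values only through the control libraries. This list was drawn with earlier results of these libraries known, so its count is not independent evidence of a direction. With a limit of 5 FPKM, where fewer of them could be fitted, 7 were lower. With all 15 fitted, 8 were lower with no low-value filter and without RCE replicate 2, RCE replicate 3 or control replicate 2. Without control replicate 1 or control replicate 3, 9 were lower, and with quantile normalization 10. Array weights, and the block with median-of-ratios scaling, each gave 13, in fits that called 1731 and 2996 of all 10870 genes lower.

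Among transcripts of the machinery that switches EGR genes on, only the calls in the RAS-ERK cascade went in both directions. Of 9 measured genes of SRF, its ternary complex and myocardin-related partners, CREB and their coactivators, 1 was higher and 0 lower (limma, and 0 lower also at an unadjusted p under 0.05). Over all genes tested, 17.6% were called higher and 6.77% lower. The replicate block gave 4 higher and 0 lower, in a fit that called 46.6% of all genes higher and 15.9% lower. With array weights, without replicate 1 of both groups, and with the block plus median-of-ratios scaling, 1 was lower. Creb1 was higher (0.22, adjusted p = 0.0122), a call that was lost with quantile normalization and without RCE replicate 2, RCE replicate 3 or control replicate 2. Of 19 fitted genes of the RAS-ERK cascade, 3 were higher, among them the exchange factor Sos1 (0.16) and the kinase Rps6ka3 (0.16), and 3 were lower, the adaptor Shc1 (-0.16) and the kinases Rps6ka2 (-0.20) and Rps6ka4 (-0.24), where 17.6% of all genes were called higher and 6.77% lower. These 6 calls were weak: 0 higher and 0 lower were left without RCE replicate 2, RCE replicate 3 or control replicate 2, 0 and 1 without control replicate 1 or control replicate 3, 0 and 4 with median-of-ratios scaling, 0 and 2 with quantile normalization, and 10 and 4 with the replicate block, in a fit that called 46.6% of all genes higher and 15.9% lower. Array weights gave 7 higher and 6 lower, leaving out replicate 1 of both groups 6 and 5, and the block with median-of-ratios scaling 5 and 8. Of all 10870 genes, the same fits called 5047 higher and 1731 lower, 4364 and 1480, and 2875 and 2996. Transcript levels say nothing of whether these kinases and factors were active.

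Of 13 NuRD subunits, 0 were higher and 0 lower (limma, with 1 higher and 0 lower at an unadjusted p under 0.05). Over all genes tested, 17.6% were called higher and 6.77% lower. With the replicate block 6 subunits were higher, in a fit that called 46.6% of all genes higher. Array weights gave 4 higher, as did leaving out replicate 1 of both groups, in fits that called 5047 and 4364 of all 10870 genes higher. The block plus median-of-ratios scaling gave 1 higher and 4 lower, where 2875 of all genes were called higher and 2996 lower. Zinc finger factors that bind GC-rich sites overlapping those of EGR factors included 3 higher of 5 fitted, where 17.6% of all genes were called higher. These were Sp1 (0.25, limma adjusted p = 0.00698), Sp3 (0.22, adjusted p = 0.00988) and Sp4 (0.23, adjusted p = 0.0190). With median-of-ratios scaling, which called 8.5% of all genes higher, 1 of 5 was higher, and 1 of 5 also without RCE replicate 2. The higher call of Sp1 held in all alternatives run.

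**Figure D4:**
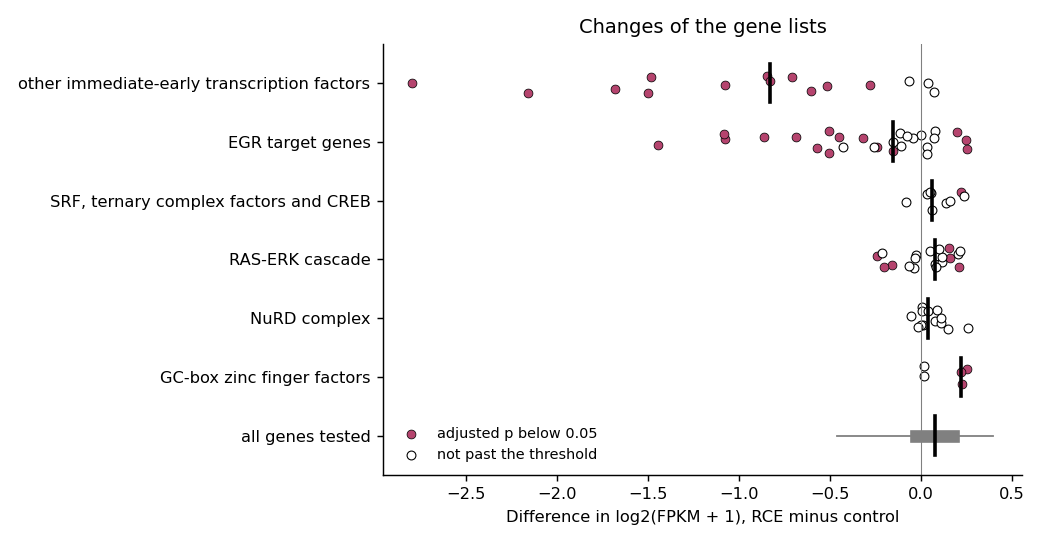
Changes in log2(FPKM + 1), RCE minus control, of the genes of the 6 lists shown (points, jittered in height, filled where the adjusted p is below 0.05), with the list median as a vertical bar. The lowest row shows all genes tested, with the middle 50% as a thick line and the middle 95% as a thin one. The immediate-early list (median -0.83) and the EGR targets (-0.15) reach far below the other 4 lists shown, whose medians lie from 0.04 to 0.22. Cell type markers and myelin genes are not drawn.

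The genes whose profiles over the 6 libraries lay nearest to a member were found by Euclidean distance between log2(FPKM + 1) values centred on each gene's mean, among 7648 genes averaging 5 FPKM or more. For Egr1 these were Sox9, a factor of cartilage fate (distance 0.159), Sik1, a salt-inducible kinase (0.381), and Cebpd, a factor of the C/EBP family (0.469). For Egr3 they were the clock-linked repressor Bhlhe40 (0.200), Rgs16, a regulator of G protein signalling (0.292), and the glucose transporter gene Slc2a1 (0.330). For Nab2 they were Nfkbiz, a nuclear inhibitor of the NF-kB family (0.0809), the ERK phosphatase gene Dusp5 (0.132) and Adm, the peptide hormone adrenomedullin (0.136). For Egr2 they were Nfkbiz (0.161), the semaphorin receptor gene Plxna2 (0.169) and the cytokine gene Il11 (0.176). Group means of Sox9, Sik1, Cebpd, Nfkbiz, Plxna2 and Il11 were 2.83 to 4.07 FPKM with the extract and 8.05 to 11.95 FPKM in control. These genes thus met the limit of 5 FPKM through the control libraries alone. All genes named here were picked for profiles like those of members that fell, so their own falls are no separate result. Among the members themselves the nearest were Egr2 and Nab2 (0.206), while Egr1 and Egr3 stood 0.485 apart and Nab1 stood 1.21 from Egr2 and farther from the rest. The nearness of Egr2 and Nab2 holds on this scale, where the pseudocount of 1 compresses the change of Egr2: in mean FPKM, Egr2 was lower by 83.3% and Nab2 by 57.4%.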

How the data were processed

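The authors deposited 1 table of FPKM for 21853 genes and 6 libraries. The header names no unit, and FPKM was taken from the tools in the submitters' processing notes and from the values, whose steps follow transcript length and depth. The notes name mm10, STAR 2.5.4, Cufflinks and Cuffdiff 2.2.1, with no role or order. Messenger RNA libraries were made with a stranded kit, per the labels' protocols. The annotation, filters and use of strand in counting are not given in the sources used here. Gene coordinates came from GENCODE M21 of the same build, in which all 21853 identifiers were found. Since FPKM are normalized, tests were made on their logarithm and not with a count model.

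From these values, limma 3.58.1 (R 4.3.3) was fitted to log2(FPKM + 1) with an intensity trend over the 10870 genes averaging 1 FPKM or more, and p-values were 2-sided and adjusted by Benjamini-Hochberg. The fit was checked on simulated data, with noise drawn independently for each gene and library. The simulation left out the shared deviations of same-numbered libraries given below, so it cannot give the error rate for these libraries. The same 10870 genes were used in every alternative except those on the limit itself. Alternatives changed the pseudocount, the limit on low values, the scaling, the trend, array weights, the block and the libraries used. Exact permutation tests used scipy 1.17.1. Where 24 symbols stood on more than 1 row, the most abundant of them was taken. Depth was taken as the number of fragments at which values from 0.02 to 0.5 FPKM of genes with 1 annotated transcript were whole, within 0.1 of a fragment: 100% of 401 to 428 values per library, against 14.5 to 16.0% at the median of other depths.

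Same-numbered libraries of the 2 groups deviated together from their group means (correlations across genes of 0.92, 0.62 and 0.68 for replicates 1, 2 and 3). The labels do not say what a number stands for. A shared number was treated as a pair only in fits with the replicate block and in values within same-numbered libraries. The main limma fit and the permutation tests were unpaired. Only replicate 1 stood apart: replicates 2 and 3 correlated more across numbers (0.77 for RCE 3 with control 2, and 0.72 for RCE 2 with control 3) than within them. Blocked values are given beside the members and lists whose calls they change most. Named genes were the members, up to 6 called genes of each list with the smallest p, the 3 genes nearest each called member, and the exceptions named as such; some genes that this rule names are not reported here. The members, lists and tests were chosen with earlier results of these data known.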

Additional observations from a re-analysis of the deposited data

How the results depend on the processing

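Egr1, Egr2, Egr3 and Nab2 stayed lower and past the threshold in every alternative in which they were fitted (17 for Egr1 and Nab2, 16 for Egr2 and Egr3, which a limit of 5 FPKM leaves out). Their changes ran from -1.80 to -1.46 for Egr1, -2.25 to -0.96 for Egr2, -2.55 to -1.83 for Egr3 and -1.29 to -1.18 for Nab2, and the highest adjusted p was 0.0214, for Egr1 without RCE replicate 2. Nab1 passed the threshold with no low-value filter (-0.11), median-of-ratios scaling (-0.19), array weights (-0.10), the replicate block (-0.11), the block with that scaling (-0.19) and without replicate 1 of both groups (-0.11). Egr4 passed with no low-value filter (-0.20), and its difference was -1.11 with a pseudocount of 0.1. Egr2 over Nab2 reversed to -1.02 with a pseudocount of 0.1 and -0.28 with 0.5, since a smaller pseudocount weighs less against the level of Egr2. The other 8 ratios kept their sign, and the exact permutation test used for ratios cannot pass the threshold with 3 libraries a group.

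Over all genes, 1910 were higher and 736 lower. The counts were 867 and 485 with a limit of 5 FPKM, where fewer genes were tested, 5047 and 1731 with array weights, 5060 and 1730 with the replicate block, 2875 and 2996 with the block and median-of-ratios scaling, and 4364 and 1480 without replicate 1 of both groups. Higher calls numbered 924 with median-of-ratios scaling, with 1090 lower, and 785 with quantile normalization. Leaving out 1 library gave 685 to 2040 higher and 394 to 734 lower. Beyond construction, the cause of these shifts was not tested. Among the members fitted in both, the block changed the call of Nab1 alone. Ratios were not fitted with the block. Depth limits Egr4, where RCE libraries held 3 to 5 fragments.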
